A study of Mus musculus with 14 samples.

Results

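Thymic lymphomas that carried 1 knock-in allele of Hif1a were compared with thymic lymphomas wild type for Hif1a, gene by gene across the array. The comparison used the 4 tumours labelled HIF1aKI/+ (numbered 1, 3, 4 and 5, called knock-in here) and the 5 labelled HIF1a+/+ (numbered 1 to 5, called wild-type), 9 of the 14 tumours of the series. The other 5, labelled HIF1a+/-, were not compared and are given as ranges for orientation. They entered the estimate of the spread and the steps run on all 14 arrays. Those include the choice of probe set, the level taken as background and the gene means behind the chromosome shifts. All mice of all groups were p53R270H/R270H, homozygous for a missense change in the tumour suppressor p53, on a mixed C57BL/6-129/SvEvTac background. The labels state neither what the knock-in allele carries nor the age or sex of a mouse. Tumours were collected when an aged animal showed respiratory distress. The study sought expression differences that could bear on tumour onset and incidence.

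Hif1a encodes HIF-1alpha, the subunit of hypoxia-inducible factor 1 whose stability is set by oxygen. With oxygen present, prolyl hydroxylases of the Egln family mark it for destruction through the von Hippel-Lindau protein, and without oxygen it pairs with ARNT and binds promoters and enhancers at a short core, ACGTG or GCGTG. Its targets include genes of glycolysis, glucose uptake and blood vessel growth, and developing thymocytes live in a tissue that is low in oxygen.

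Levels are log2 units of the authors' probe set summaries, so a difference of 1 is 2-fold, and 10254 genes were measured. The array medians lay between 7.91 and 8.03. Of the genes, 30.1% had means under 4.84, the valley between the background mode and the main mode of the distribution, called the low-mode boundary here. No depth can be given for arrays, and their number limits the precision. T lineage genes were high in all 9 tumours (Cd3e from 12.75 to 13.48, Cd8a from 13.49 to 14.18), while Cd79a of B cells and Alas2 of red cells stayed below the boundary in all 9. Macrophage and fibroblast genes were also above it in all 9 tumours (Csf1r from 13.17 to 13.89, Col1a1 from 11.33 to 13.41), so the RNA is that of whole tumours. In such samples fewer cells of a type and less RNA per cell cannot be told apart. Xist, the RNA of the inactive X chromosome, was high in knock-in tumour 1 and in wild-type tumours 3 and 5, at 11.97, 12.57 and 11.64, so both groups held tumours from females. The Y-linked Eif2s3y lay from 11.98 to 12.42 in knock-in tumours 3, 4 and 5 and wild-type tumour 1, and read 8.92 and 7.46 in wild-type tumours 2 and 4, where Xist read 2.01 and 3.85.

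Hif1a itself had a lower signal in every knock-in tumour. The probe set of highest mean read 12.25, 12.14, 11.94 and 11.75 in knock-in tumours 1, 3, 4 and 5 and 12.60, 13.04, 12.45, 12.44 and 12.85 in wild-type tumours 1 to 5. The groups did not overlap, with 0.193 between the nearest tumours. The difference was -0.66 (1.58-fold lower; exact permutation p = 0.00794, two-sided, the smallest that 126 assignments allow). The probe set ranked 3 by mean read 8.63, 6.51, 8.14 and 9.0 against 9.98, 10.64, 10.11, 9.43 and 9.38, again without overlap (-1.84, 3.57-fold lower; exact permutation p = 0.00794). The one ranked 2 overlapped because wild-type tumour 4 read 9.31 (-0.76; exact permutation p = 0.119), and the one ranked 4 was at background in every tumour. With p adjusted over all 10254 genes, that of Hif1a was 0.984 (limma). Which exons the probe sets read relative to the knock-in was not analysed here.

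**Figure D1:**
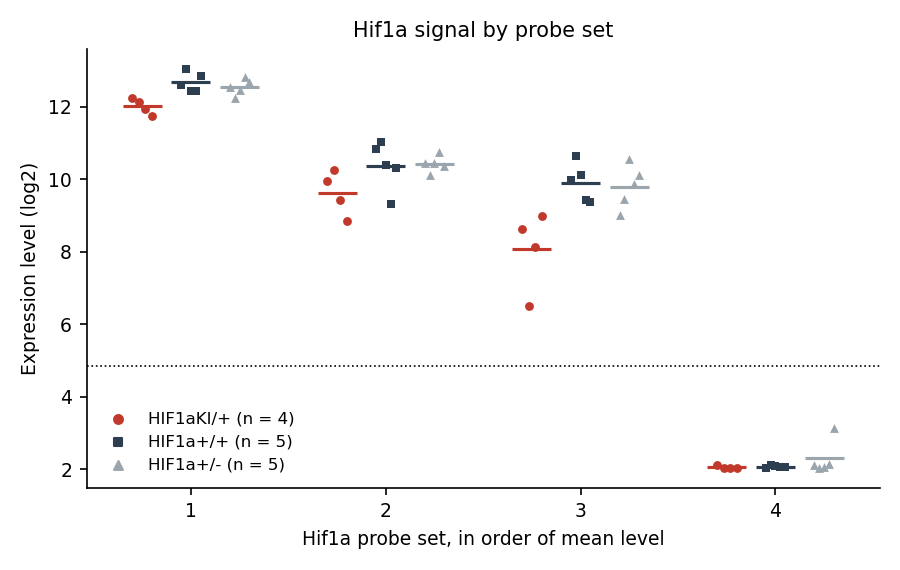
Hif1a level (log2) in each tumour at the 4 probe sets of the gene, in order of mean level, with a bar at each group mean and the low-mode boundary dotted. At probe sets 1 and 3 all 4 knock-in tumours lie below all 5 wild-type tumours, at probe set 2 the groups overlap, and probe set 4 is at background.

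Around Hif1a, 50 neighbouring genes were measured, 25 on each side in gene order. Of the 34 whose group means were both above the boundary, 19 were higher and 15 lower in knock-in tumours, with a median difference of 0.03 beside 0.02 over all such genes, and 0 of the 50 had groups that did not overlap. Epas1, which encodes the related subunit HIF-2alpha, stayed below the boundary in all 9 tumours, with 2.82 in knock-in tumour 5 and at most 2.11 in the other knock-in tumours (difference 0.22; exact permutation p = 0.0873).

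Over all 10254 genes, limma called 0 at an adjusted p under 0.05, which is 0% of the genes, and the smallest adjusted p was 0.715, for Stab1. At an unadjusted p under 0.05 there were 446 genes (4.35%), 279 higher (2.72%) and 167 lower (1.63%). The gene differences below are therefore values that did not pass this test, and neither did that of Hif1a; they are described because the groups were apart in these 9 tumours.

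Expression of 114 genes did not overlap between the groups, meaning that all 4 knock-in tumours lay above, or all below, all 5 wild-type tumours, with both group means above the low-mode boundary. That is 1.62% of the 7046 genes with such means, 68 higher (0.965%) and 46 lower (0.653%) in knock-in tumours. If the labels meant nothing, a gene would be apart in a given direction at a rate of 0.00794, the smallest exact permutation p of the 126 assignments. The shares lie near that rate, so the count by itself shows no difference by genotype, and the genes below are described as values. Without regard to level, 180 of the 10254 genes (1.76%) did not overlap, 90 in each direction (0.878% each), and the 10 higher and 40 lower genes with neither mean above the boundary were left out. The higher genes differed by 0.17 to 5.16 (median 0.63), 19 of them at least 2-fold, and the lower by 0.11 to 1.78 in size (median 0.60), 13 of them at least 2-fold. The distance between the nearest tumours reached 0.1 in 25 higher and 18 lower genes. The split depended on scaling: 59.6% of the 114 were higher as deposited, and 38.4% of the genes found after centring each array on its median (43 higher and 69 lower).

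**Figure D2:**
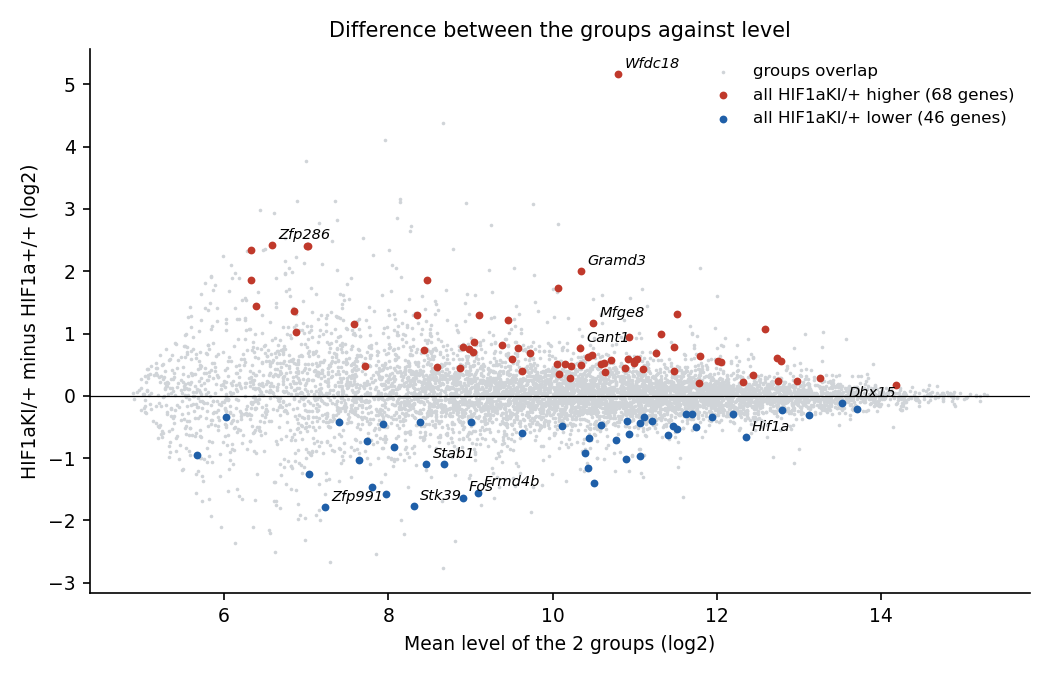
Difference between the group means (knock-in minus wild-type, log2) against the mean level of both groups (log2), 1 point for each of the 7046 genes with both group means above the low-mode boundary. The 68 genes with every knock-in tumour higher are red and the 46 with every knock-in tumour lower are blue, and many grey genes, whose groups overlap, differ by as much as most of them.

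A second probe set of the same gene, above the boundary in both groups, was there for 37 of the 114 genes, 43 probe sets in all. Of these, 39 differed in the same direction and 4 in the opposite one (Ankrd40, Pclaf, Pias2 and Zfp991). At 13 of them, from 12 genes, the groups again did not overlap: Pip4k2a, Flot2, Klf7, Znrf1, Spice1 and Rgcc higher, and Hif1a, Frmd4b, Col5a1, Evi5, Stk39 and Grsf1 lower. Over all 3759 other probe sets of genes with both means above the boundary, 43 (1.14%) did not overlap. A second probe set reads the same gene in the same tumours, so a repeat bears on the measurement and not on the genotype. The second Pclaf probe set read -1.17 beside 0.23 at the first, and the second of Zfp991 read 1.46 beside -1.78, so the direction of these genes depends on the probe set.

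The promoters of 4 of these genes are printed as examples with the HIF core marked. Hif1a is the gene that was altered, and the other 3 are among the genes with wide separation. Genes with a wider separation than Mapk7 and Stab1, such as Dab2ip and Cd96, are not printed. They are the 250 bases before the annotated start in RefSeq (GRCm38.p6), 5′ to 3′, with each ACGTG or GCGTG on either strand (the other strand reads CACGT or CACGC) in capitals. The Hif1a promoter holds CACGTG, in which CACGT and ACGTG overlap, and 1 more ACGTG. The Mapk7 promoter holds 3 matches, the Fos promoter 1 and the Stab1 promoter none.
Hif1a (chr12:73907617-73907866, plus strand): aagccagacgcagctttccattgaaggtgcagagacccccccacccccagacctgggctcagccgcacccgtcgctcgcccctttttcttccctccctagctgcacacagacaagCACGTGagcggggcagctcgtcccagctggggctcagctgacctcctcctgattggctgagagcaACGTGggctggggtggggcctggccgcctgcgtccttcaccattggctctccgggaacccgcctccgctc
Mapk7 (chr11:61494267-61494516, minus strand): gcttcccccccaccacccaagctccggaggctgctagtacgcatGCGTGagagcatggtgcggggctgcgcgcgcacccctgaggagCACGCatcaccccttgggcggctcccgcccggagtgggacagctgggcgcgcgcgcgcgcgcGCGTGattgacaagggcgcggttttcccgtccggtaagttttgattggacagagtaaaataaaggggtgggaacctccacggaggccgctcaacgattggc
Fos (chr12:85473640-85473889, plus strand): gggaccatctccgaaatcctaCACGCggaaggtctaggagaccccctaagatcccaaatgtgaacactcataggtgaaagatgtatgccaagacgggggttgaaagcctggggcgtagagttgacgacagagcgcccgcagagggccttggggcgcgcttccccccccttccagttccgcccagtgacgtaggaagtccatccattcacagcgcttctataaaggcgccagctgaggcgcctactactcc
Stab1 (chr14:31168642-31168891, minus strand): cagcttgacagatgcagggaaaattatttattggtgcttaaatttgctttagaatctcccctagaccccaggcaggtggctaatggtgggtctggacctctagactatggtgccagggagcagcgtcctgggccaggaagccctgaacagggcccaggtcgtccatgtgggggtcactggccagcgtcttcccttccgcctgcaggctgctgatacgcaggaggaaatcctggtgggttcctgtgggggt

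In windows from 250 bases before to 50 after each start, the core was in 40 of 66 promoters of the higher genes (60.6%) and in 34 of 47 of the lower genes (72.3%), beside 63.9% of the promoters of all 7046 genes and 43.8% of all promoters in the table. ACGTG alone was in 18.2% and 34.0%, beside 26.5% and 19.6%. Of the 68 higher genes 52 had an entry and of the 46 lower genes 39, and a match is a run of letters, not a binding site.

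Genes of signalling were 20 of the 114, with 12 higher and 8 lower. The placing by function was done by hand after the values were seen, and the number of measured genes with each function was not counted, so the sizes of these groups describe the 114 only. Mapk7 encodes ERK5, a MAP kinase. It read 7.86, 7.85, 8.95 and 7.97 in knock-in tumours against 7.48, 6.34, 7.30, 6.87 and 7.04 in wild-type tumours. Knock-in tumour 4 was the highest and the other 3 lay close together, 0.37 or more above every wild-type tumour (difference 1.16, SE 0.29; limma adjusted p = 0.984). Pip4k2a, a kinase that makes phosphatidylinositol 4,5-bisphosphate, read 12.29, 12.42, 12.49 and 12.07 against 11.76, 11.47, 11.89, 11.86 and 11.90. Its difference of 0.54 (SE 0.13) was matched by 0.54 at its second probe set, where the groups were also apart. Dusp19, a dual specificity phosphatase, differed by 0.62 (10.73 ± 0.17, SD, n = 4, against 10.11 ± 0.22, SD, n = 5).

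Dab2ip, a GTPase-activating protein for Ras, had the widest separation of the higher genes, 0.78. It read 10.21, 10.06, 10.18 and 9.81 in knock-in and 9.03, 9.0, 8.82, 8.54 and 8.85 in wild-type tumours, a difference of 1.22. Its SE of 1.16 includes the spread of the HIF1a+/- tumours in the same fit, which ran from 3.45 to 10.31. Plekhb2 (1.29), Trib3, a pseudokinase induced by stress (1.86), Rgcc, a regulator of the cell cycle (1.07), Znrf1, a ubiquitin ligase (0.61), Stat5b, a transcription factor downstream of cytokine receptors (0.57), and Tsc2, the GTPase-activating subunit that restrains mTORC1 (0.48), were also higher.

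Among the lower signalling genes the largest difference was that of Stk39, the kinase SPAK that acts on ion cotransporters. It read 6.61, 8.13, 6.95 and 8.01 in knock-in tumours against 8.39, 9.61, 9.41, 10.11 and 8.44 (-1.77, SE 0.92), a separation of 0.26 between groups that each spread widely. Frmd4b, a FERM domain protein, read 7.44, 8.83, 8.24 and 8.74 against 9.56, 9.17, 10.66, 10.30 and 9.63. The 2 other Frmd4b probe sets above the boundary did not overlap either, and the difference was -1.55 (SE 0.38; limma adjusted p = 0.984). Evi5, a GTPase-activating protein of membrane traffic, differed by -0.97 and Ibtk, an inhibitor of Bruton's tyrosine kinase, by -0.93. Both a GTPase-activating protein of Ras, Rasa3, at -1.03, and a Ras exchange factor, Sos1, at -0.34, were lower. For Sos1, knock-in tumours 1 and 3 and wild-type tumours 1 and 5 all read 5.88.

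**Figure D3:**
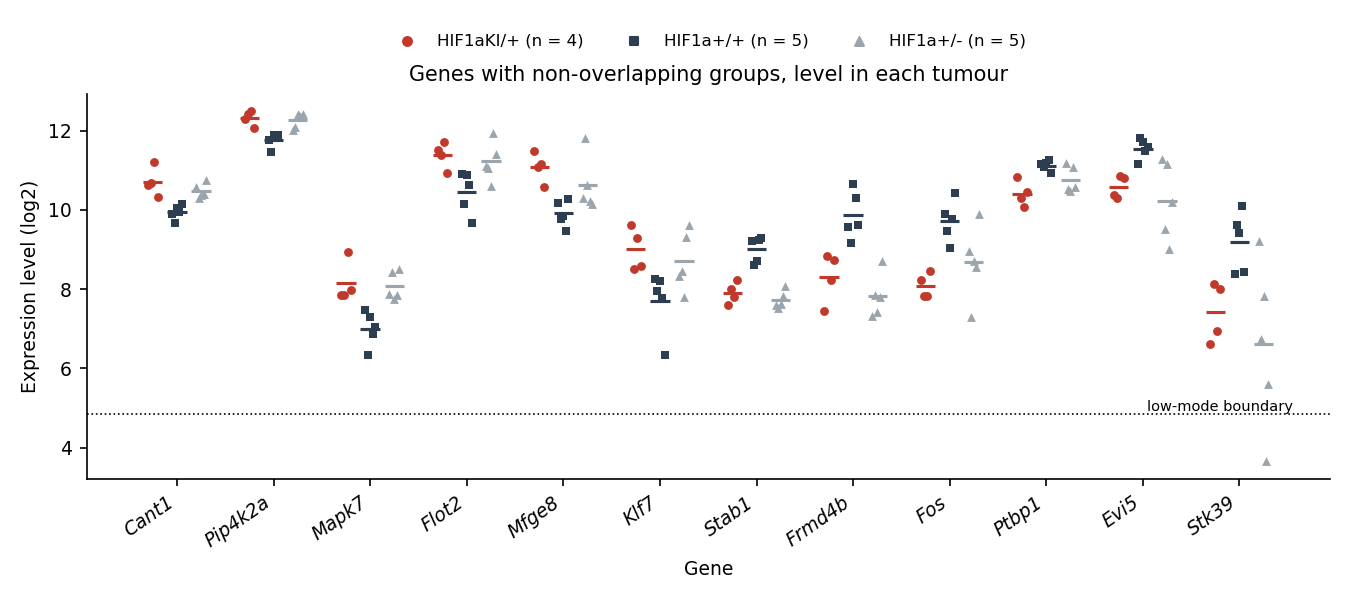
Level (log2) of 6 higher and 6 lower genes in each tumour, with a bar at each group mean and the low-mode boundary dotted. In all 12 the knock-in and wild-type tumours do not overlap, and the HIF1a+/- tumours, shown in grey and not compared, reach below the boundary for Stk39.

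T cell surface proteins were represented by 3 genes, all higher in knock-in tumours. Cd8b1 encodes the beta chain of the CD8 coreceptor and read 11.68, 11.64, 12.27 and 11.67 against 10.12, 10.95, 10.65, 10.73 and 11.62 (difference 1.0, SE 0.31). The nearest tumours were 0.01 apart, and Cd8a, the alpha chain, overlapped, from 13.67 to 14.18 against 13.49 to 13.94. Cd96, an adhesion receptor of T and natural killer cells, lay from 10.57 to 11.53 in knock-in and from 7.81 to 10.10 in wild-type tumours (1.73, SE 1.6). The Cd96 difference was 0.49 with the level of Y-linked genes as a covariate in the fit. Both fits include the HIF1a+/- tumours, which ran from 2.79 to 12.37 for Cd96. Cd52, a small glycoprotein of lymphocytes, lay from 11.79 to 12.38 against 9.63 to 11.75 (1.32). Of 17 measured T lineage markers, all above the boundary, 14 were higher and 3 lower (median 0.17). Cd8b1 was the 1 of 17 without overlap, beside 1.62% of all such genes.

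Transcription and chromatin genes numbered 18, with 11 higher and 7 lower. Fos, the AP-1 subunit induced within minutes of a stimulus, had the widest separation of the lower genes, 0.57. It read 8.24, 7.82, 7.83 and 8.46 in knock-in and 9.89, 9.46, 9.03, 9.78 and 10.44 in wild-type tumours (-1.63, SE 0.43; limma adjusted p = 0.984). Over the 12 immediate early genes with both means above the boundary, 7 were higher and 5 lower (median 0.34), so Fos stood on the other side from most of that list. Klf7, a Krüppel-like factor, read 9.63, 8.51, 9.29 and 8.59 against 8.25, 7.95, 8.20, 7.79 and 6.35, and its second probe set was 1.36 higher beside 1.30 at the first. Mlx, a partner of the glucose-sensing factors of the Mondo family, was 0.45 higher. Pias2, a SUMO ligase, was 1.02 lower at its first probe set and 0.01 higher at its second, and Hmgb3, a high mobility group protein encoded on the X chromosome, was 1.17 lower with knock-in tumour 4 lowest at 8.46.

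Zinc finger genes of the Zfp family were mostly higher, 78 of the 101 with both means above the boundary (median 0.18, beside 3763 of 7046 genes and 0.02 over all). The count was 75 after quantile normalization and 74 after centring the arrays, beside 3671 and 3402 of all 7046. Of the 101, 3 were higher and 2 lower without overlap, beside 0.965% and 0.653% of the 7046. Zfp286 had the largest difference, with 7.29, 7.42, 8.98 and 7.50 against 6.50, 4.74, 5.58, 2.89 and 7.18 (2.42). The wild-type values ran across the boundary, so the size of that difference is uncertain. Zfp87 was tighter, at 9.36 ± 0.10 (SD, n = 4) against 8.60 ± 0.39 (SD, n = 5), and Zfp472 differed by 0.60.

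Of the 114 genes, 12 were placed under RNA processing, ribosome biogenesis and translation, 3 higher and 9 lower. Ptbp1, the polypyrimidine tract binding protein that represses exons, read 10.84, 10.29, 10.07 and 10.45 in knock-in and 11.17, 11.08, 11.18, 11.25 and 10.93 in wild-type tumours (-0.71, SE 0.18). The 5 wild-type tumours had an SD of 0.12. Hnrnph2, a splicing regulator encoded on the X chromosome, was 0.50 lower, and the helicases Ddx21, of ribosome biogenesis, and Dhx15, of the spliceosome, were 0.31 and 0.11 lower. With chromosome shifts taken out both overlapped, Ddx21 at -0.17 and Dhx15 turned to 0.07. Larp1b (-1.57) had knock-in tumour 4 at 4.55 and the other 3 from 8.0 to 8.15, and Cpeb2, which binds the tails of messenger RNAs, differed by -1.25. Nolc1, a nucleolar phosphoprotein, was 0.62 lower and Pes1, of the large ribosomal subunit pathway, 0.28 higher. Of 28 splicing and RNA processing genes 13 were higher and 15 lower (median -0.03), and of 27 ribosome biogenesis genes 9 and 18 (median -0.07).

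Replication, repair and chromosome segregation contributed 9 genes, 7 of them higher. Gins4, a subunit of the GINS helicase complex, lay from 10.98 to 11.45 against 10.48 to 10.96 (0.53). Wdhd1, which links the replicative helicase to polymerase alpha, lay from 11.36 to 12.13 against 10.58 to 11.30 (0.69). Etaa1, an activator of the kinase ATR, differed by 0.68 and Dtl, the adaptor that sends licensing factor Cdt1 to destruction, by 0.24. On the lower side, Cenpe, the kinesin of the kinetochore, read 8.23, 7.29, 8.27 and 8.70 against 9.01, 8.83, 9.75, 9.50 and 9.01 (-1.10), and Top1, topoisomerase I, differed by -0.33. Over 37 measured cell cycle genes, all above the boundary, 14 were higher and 23 lower (median -0.05). Cenpe was the 1 of 37 without overlap, beside 1.62% of all such genes.

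Metabolism, mitochondria and transport held 18 genes, 12 higher and 6 lower. Cant1, a calcium-activated nucleotidase of the Golgi, had the smallest p of the higher genes (limma unadjusted p = 0.000465, adjusted p = 0.984). It read 10.63, 10.67, 11.22 and 10.34 against 9.91, 9.67, 10.04, 9.95 and 10.15 (0.77, SE 0.16). Tst, the mitochondrial sulfurtransferase rhodanese, was 5.32-fold higher, with 8.11, 7.66, 8.78 and 8.33 against 6.44, 5.78, 4.97, 4.90 and 6.94, and a separation of 0.71. Prodh, which starts the breakdown of proline, lay from 6.63 to 9.38 against 3.85 to 6.42 (2.34), with knock-in tumour 4 highest and 2 wild-type tumours below the boundary. Fxyd2, a regulatory subunit of the sodium pump, differed by 1.86, the amino acid transporter gene Slc38a2 by 0.55 and Ndufs5 of respiratory complex I by 0.56. The other complex I genes did not share this: of 38 Nduf genes with both means above the boundary, 19 were higher and 19 lower, and 14 of the 38 were higher after centring the arrays.

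The lower metabolic genes were Smox, which oxidises spermine (-0.95), Endog (-0.53), Ctps2, which makes CTP (-0.48), Gusb, the lysosomal beta-glucuronidase (-0.40), Rpia of the pentose phosphate pathway (-0.34) and Qdpr, which recycles tetrahydrobiopterin (-0.22). In protein folding, traffic and degradation, 4 genes were higher and 8 lower. Hyou1, a chaperone of the endoplasmic reticulum named for its induction in hypoxia, read 10.07, 9.37, 10.17 and 9.86 against 10.71, 10.21, 10.27, 10.24 and 10.35 (-0.49, SE 0.15), with 0.03 between the groups. Rnf10, a ubiquitin ligase (-0.68), and Uso1, a tether of vesicles at the Golgi (-0.63), were lower in every knock-in tumour, and Qsox1, which forms disulfide bonds, was 1.44 higher.

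Gps1 and Cops3, subunits 1 and 3 of the COP9 signalosome, the complex that removes NEDD8 from cullin ubiquitin ligases, were both higher, by 0.52 and 0.33. Both lie on chromosome 11, and with each chromosome's shift taken out, as described with the chromosomes, the differences were 0.31 and 0.12 and the groups overlapped. The other subunits, looked up after these values were seen, lie on other chromosomes and overlapped, and they ran from Cops6 at -0.57 and Cops2 at -0.38 to Cops7b at 0.44.

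Stab1, which encodes a scavenger receptor found on macrophages and on the endothelium of sinusoids, had the smallest p of all genes (limma unadjusted p = 6.97e-05, adjusted p = 0.715). It read 7.61, 8.0, 7.80 and 8.24 in knock-in and 9.22, 8.60, 8.70, 9.24 and 9.30 in wild-type tumours, a difference of -1.10 (SE 0.18) with 0.36 between the groups. F13a1, the clotting factor XIII subunit that macrophages and platelets carry, lay from 9.05 to 10.51 against 10.74 to 12.38 (-1.40), and Col5a1, a fibrillar collagen, from 5.27 to 7.92 against 7.92 to 9.48 (-1.46). The mean of 20 macrophage markers, Stab1 itself among them, ran from 6.98 to 7.95 in knock-in and from 7.65 to 9.20 in wild-type tumours. Marco and Cd163 were below the boundary in every knock-in tumour. Of the 14 macrophage markers with both means above the boundary, 7 were higher and 7 lower (median -0.02), Cd68 among the higher (11.45 against 11.18). The mean of 21 fibroblast and matrix genes, Col5a1 itself among them, ran from 8.47 to 9.53 against 8.71 to 10.30. Their part in these 3 differences was not tested. Csf1r, which defines macrophages, lay from 13.17 to 13.53 against 13.18 to 13.89, and Col1a1 from 11.33 to 12.84 against 11.99 to 13.41.

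Mfge8, which bridges dying cells to phagocytes, was 2.25-fold higher, with 11.50, 11.08, 11.15 and 10.59 against 10.18, 9.77, 9.85, 9.48 and 10.28, and 0.31 between the groups. Flot2, a scaffold protein of membrane rafts, differed by 0.94, and Pglyrp2, which cleaves bacterial peptidoglycan, by 1.36. Gramd3 read 12.01, 10.46, 11.02 and 11.90 against 10.16, 9.30, 7.44, 10.13 and 9.70 (2.0). Brip1os (0.56) and Retreg2 (0.48), a membrane protein of the endoplasmic reticulum, were also higher, and 3110040N11Rik was lower (-0.43).

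The largest difference of all 114 was that of Wfdc18, a small secreted protein with a whey acidic protein domain. It read 13.49, 13.44, 12.98 and 13.63 in knock-in tumours and 12.53, 11.65, 4.25, 3.22 and 9.45 in wild-type tumours. The mean difference of 5.16 thus rested mostly on wild-type tumours 3, 4 and 5, while wild-type tumours 1 and 2 lay nearer to the knock-in group. Wild-type tumours 3 and 4 were below the boundary, so the size of that difference is uncertain. Jup, plakoglobin of desmosomes and adherens junctions, read 8.13, 7.98, 8.39 and 8.37 against 5.54, 4.86, 4.41, 6.31 and 7.97. Its order among the wild-type tumours was another one, with tumour 5 just 0.01 below the knock-in group and tumours 2 and 3 lowest, tumour 3 below the boundary. Krt8, a keratin of simple epithelia, read 11.65, 11.33, 9.59 and 10.87 against 10.68, 9.94, 3.09, 2.04 and 6.62, so that wild-type tumours 3, 4 and 5 were lowest for Krt8 and Wfdc18 but not for Jup. The mean of 16 thymic epithelial markers ran from 5.99 to 7.51 in knock-in and from 3.94 to 6.55 in wild-type tumours, with 3 of the 16 below the boundary in all 9, and all 8 with both means above the boundary were higher (median 1.19). Its part in the differences of Wfdc18 and Jup was not tested.

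A further 16 genes had groups apart with only 1 group mean above the boundary, 6.27% of 255 such genes, 12 higher (4.71%) and 4 lower (1.57%). A gene enters this class because its group means lie on either side of the boundary. That selects for a difference, so the 6.27% cannot be read as an excess over the 1.62% of the 7046 genes. The differences of the 16 are measured against background. Calcb, calcitonin-related peptide beta, read 10.22, 9.05, 8.74 and 8.54 against 6.59, 6.99, 2.16, 2.10 and 2.11, the same 3 wild-type tumours being lowest. Psors1c2 lay from 4.30 to 6.38 against 2.03 to 3.01, and Jag2, a ligand of Notch receptors, from 4.86 to 5.97 against 3.05 to 3.60. Ptgds, a prostaglandin D synthase (3.33 to 9.25 against 2.15 to 2.96), Slit3, a guidance ligand (4.20 to 7.21 against 2.62 to 3.86), and Defb6, a defensin (2.63 to 7.04 against 2.12 to 2.63), spread widely among knock-in tumours. Chac1, which degrades glutathione and is induced by stress, lay from 4.55 to 5.36 against 3.46 to 4.46.

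Rpl39l, a paralog of a ribosomal protein gene, was the reverse. It read 2.10, 2.13, 2.13 and 2.13 in knock-in tumours, at background, and 7.90, 2.82, 12.90, 13.12 and 5.99 in wild-type tumours, and from 2.12 to 2.32 in HIF1a+/- tumours. Signal from the closely similar Rpl39 was not separated from it here. Hopx, a homeodomain protein without DNA binding, lay from 1.85 to 3.62 against 4.94 to 6.81, Slc22a21, a carnitine transporter, from 3.44 to 4.76 against 5.73 to 7.38, and Wdfy3, an autophagy scaffold, from 2.23 to 3.61 against 3.90 to 6.75.

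**Figure D4:**
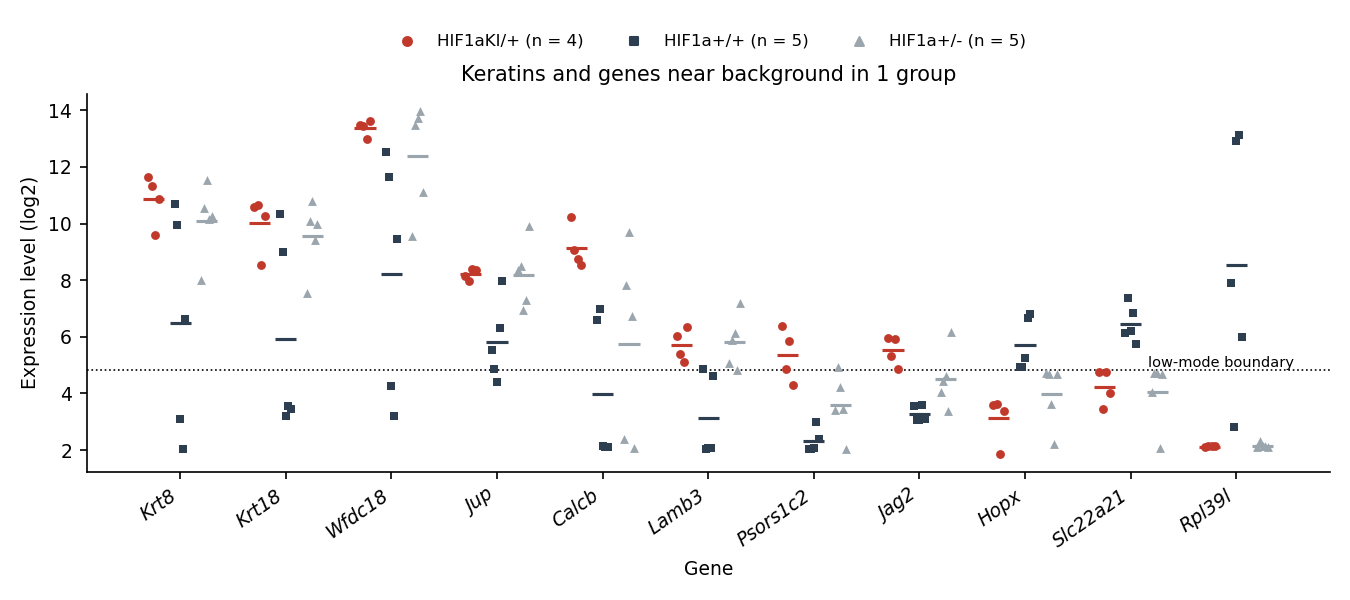
Level (log2) in each tumour of Krt8 and Krt18, of Wfdc18 and Jup, and of genes with 1 group mean near background, with a bar at each group mean and the low-mode boundary dotted. Wild-type tumours 3 and 4 are lowest for Krt8 and Wfdc18, and Rpl39l is at background in all 4 knock-in tumours and ranges from 2.82 to 13.12 in wild-type tumours.

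By chromosome, 21 of the 68 higher genes (30.9%) lie on chromosome 11, which holds 618 of the 7046 genes (8.77%), a pattern noticed after the values were seen. Among genes with both means above the boundary, only Evi2a of that chromosome was lower without overlap. The genes of chromosome 11 were mostly higher, 80.4% of them, with a median of 0.20, and when the chromosome was divided into 4 stretches in gene order, 74.8% to 87.0% were higher in each. Each tumour's median deviation there was 0.05, 0.03, 0.31 and -0.03 in knock-in and -0.13, -0.26, -0.03, -0.10 and -0.06 in wild-type tumours. Knock-in tumour 4 was highest and the groups just overlapped (exact permutation p = 0.0159; Benjamini-Hochberg over 20 chromosomes 0.318). Chromosome 17 had 8 higher genes and 1 lower (exact permutation p = 0.0476, adjusted 0.476). Chromosome 5 had 0 higher and 8 lower (median -0.18) and the X chromosome 0 and 4 (median -0.23). In either direction, 2.41% of the 373 genes of chromosome 17, 1.73% of the 462 of chromosome 5 and 1.97% of the 203 of X did not overlap. Over all 7046 genes it was 1.62%, 0.965% higher and 0.653% lower, and on chromosome 11 it was 3.56%. For chromosome 5 and for X the exact permutation p was 0.151 (adjusted 0.708). The shifts of the groups overlapped on each of these chromosomes. Xist was high in 1 of 4 knock-in and 2 of 5 wild-type tumours. DNA copy number was not analysed here, and the part of such shifts in single genes was not tested.

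When each tumour's shift was taken from the genes of each chromosome, 30 of the 68 higher genes and 24 of the 46 lower genes still did not overlap. On chromosome 11, 8 of 21 did so, among them Cant1 (0.56 after, 0.77 before), Mapk7 (0.95, 1.16) and Zfp286 (2.21, 2.42), and Jup, Flot2, Stat5b, Med31, Gps1, Cops3 and Wfdc18 did not. Dhx15, on chromosome 5, was the 1 gene of the 114 whose direction turned. Stab1, Fos, Hif1a, Frmd4b, Stk39, Ptbp1 and Klf7 were among those still apart.

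**Figure D5:**
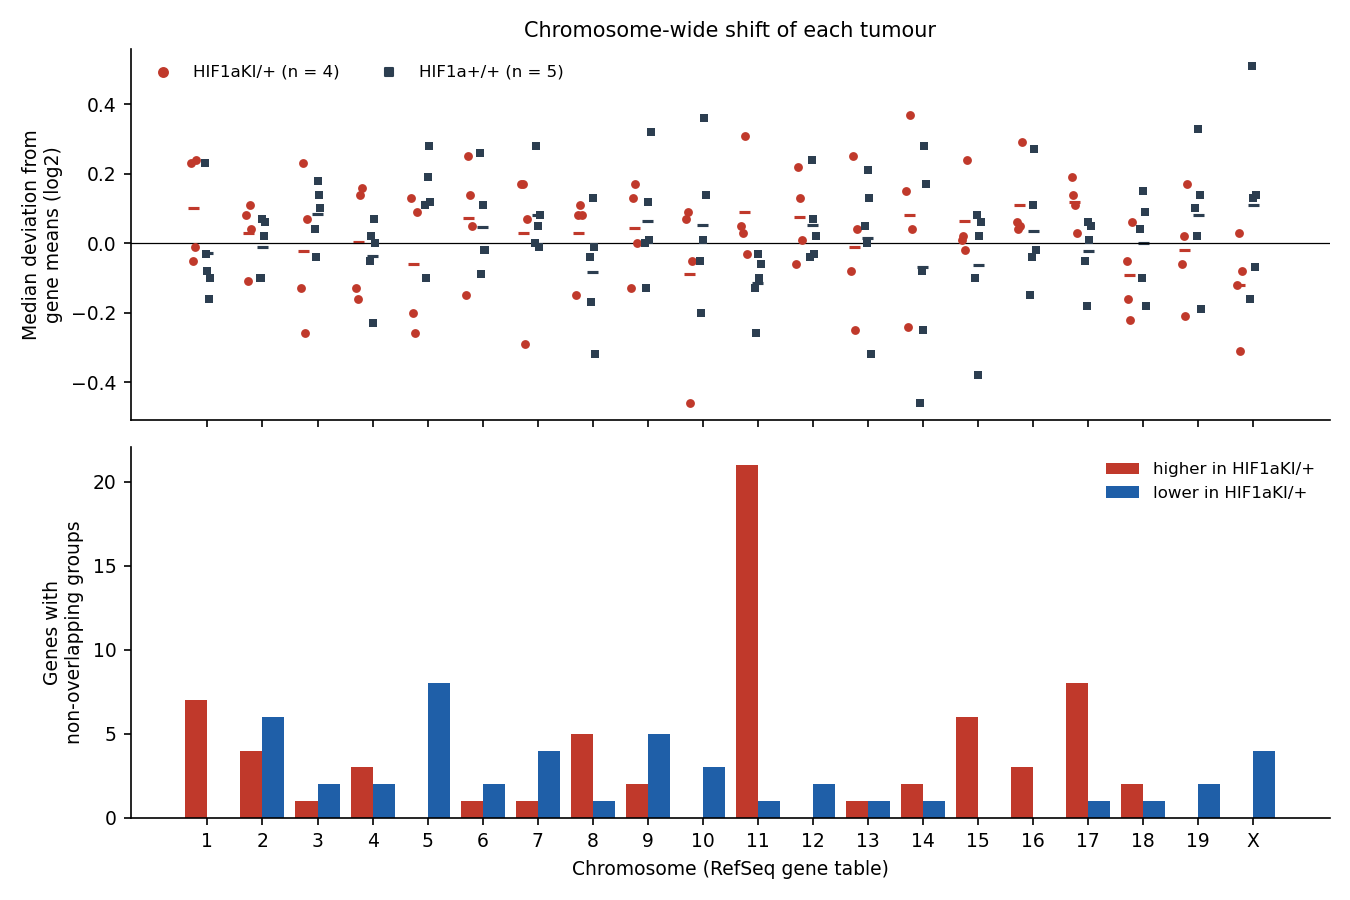
Upper panel, median deviation from the gene means (log2) of the genes of each chromosome, 1 point for each tumour with a bar at the group mean. Lower panel, number of genes without overlap between the groups on each chromosome. Chromosome 11, with 618 genes, has 21 higher ones, and chromosome 5, with 462 genes, has 8 lower ones.

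Of 14 measured components of the HIF pathway, 10 had both means above the boundary, 4 higher and 6 lower (median -0.19), and Hif1a was the 1 of 10 without overlap, beside 1.62% of all such genes. The prolyl hydroxylase genes Egln1 and Egln3 differed by -0.28 and -0.39, with groups that overlapped. Among 21 hypoxia-induced genes above the boundary, 13 were higher and 8 lower (median 0.18), with 0 of them apart. Vegfa, the vessel growth factor, was the 1 with an unadjusted p under 0.05, named after its value was seen: 7.39, 7.33, 6.30 and 6.12 against 5.86, 6.21, 5.79, 6.13 and 6.13 (0.76; limma adjusted p = 0.984). Glycolysis genes gave 5 higher and 11 lower of 16 (median -0.05), with Slc2a1, the glucose transporter GLUT1, at 0.10 and Pgk1 at -0.10.

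For the other lists the same 1.62% is the share to read counts against, and at their sizes a count of 0 says little. Notch pathway genes above the boundary gave 4 higher and 13 lower (median -0.19), with 0 apart. Interferon-induced genes gave 22 higher and 1 lower (median 0.66), 20 of 23 being higher under either other scaling, and 0 of them were apart. Genes of dendritic cells and MHC class II were all 9 higher (median 0.72), also with overlap, and TCA cycle genes gave 6 higher and 16 lower (median -0.14), 4 of the lower at an unadjusted p under 0.05 and none at an adjusted one.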

How the data were processed

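Total RNA of 14 thymic lymphomas was amplified, labelled with biotin and hybridised to 1 Affymetrix array each, per the labels. The authors deposited log2 values summarised per probe set, and the submitters' processing notes name GCRMA and Partek without versions and no genome build. GCRMA corrects background by probe sequence and normalizes arrays to each other, so differences near background are of uncertain size. Of 18264 probe sets, 16602 name 1 gene. The probe set of highest mean over all arrays stood for a gene, which gave 10254 genes (3999 had several), and names were updated through RefSeq. limma 3.58.1 in R 4.3.3 fitted a mean per genotype to all 14 arrays (lmFit, eBayes, two-sided, Benjamini-Hochberg over all genes, threshold 0.05), and the script was tested on simulated data. Non-overlapping groups were counted, and single genes compared by exact permutation of the 9 tumours. Errors with a mean are SD between tumours and errors with a difference are SE of the fit. Replicates are labelled biological.

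Genes named are Hif1a, Epas1, the 12 higher and 12 lower of smallest p among genes without overlap, the next 6 of largest difference on each side, up to 5 on each side with 1 group mean above the boundary, and up to 4 per gene list or symbol family; others were named after their values were seen. The members and lists were chosen with earlier results of these data known. Alternatives covered scaling, probe set choice, level, moderation, array weights, a covariate, the replicate block and leaving out each tumour. Same-numbered tumours of the 2 genotypes correlated at 0.0399, 0.151, -0.0337 and -0.00364 and the labels name no pairing, so the main fit has no block.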

Additional observations from a re-analysis of the deposited data

Results flagged for a closer look

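Dixon's criterion was applied to the 71 named genes in both groups, 142 in all. It marked 19 values, each of a tumour that stood apart from the rest of its group for that gene. Its rate of about 1 in 20 holds for independent, normally spread values. These genes were chosen on the same values and some marked values are at background, so no excess can be read from the count. Knock-in tumour 4 accounted for 7 and wild-type tumour 1 for 5. Knock-in tumour 4 was high for Mapk7 (8.95), Zfp286 (8.98), Cd8b1 (12.27) and Slc38a2 (13.47) and low for Larp1b (4.55), Hopx (1.85) and Sos1 (5.80). Knock-in tumour 1 was low for Zfp991 (4.33) and Rpl39l (2.10), and knock-in tumour 5 high for Epas1 (2.82).

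Wild-type tumour 1 was high for Defb6 (2.63), Hyou1 (10.71), Epas1 (2.04) and Chac1 (4.46) and low for Stat5b (10.11). Wild-type tumour 2 was high for F13a1 (12.38) and Zbtb45 (8.90), wild-type tumour 4 for Cpeb2 (8.95) and wild-type tumour 5 for Psma7 (13.16). The values given for Epas1, Defb6, Rpl39l, Hopx, Chac1, Larp1b and Zfp991 lie below the low-mode boundary, where the size of a difference is uncertain.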

How the results depend on the processing

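The count of genes passing the limma test stayed at 0 under the other settings run, with 2 exceptions that each leave out a tumour: it ranged from 0 to 2 higher and was 0 lower. Without knock-in tumour 3 it was 1 (Tmem38a, adjusted p = 0.00789) and without knock-in tumour 5 it was 2 (Mfap2 and Rab6b, adjusted p = 0.0437), and the wild-type means of these 3 genes are at background. The smallest limma adjusted p ran from 0.00789 to 1 over the settings. The count of 68 higher genes without overlap became 43 with arrays centred on their medians, 25 with a separation of at least 0.1 and 19 with a difference of at least 1, and the count of 46 lower genes became 18 and 13 under the last 2. Leaving out each tumour gave 93 to 177 higher and 62 to 141 lower, since fewer tumours overlap less. With the replicate number taken out as a block the counts were 515 and 403, a fit that removes degrees of freedom, and calls stayed at 0; the Hif1a level differed by -0.65 with that block (limma unadjusted p = 0.0103), and 0 of 4 knock-in tumours correlated best with the wild-type tumour of their own number. Chosen after seeing the data, centring each chromosome gave 51 higher and 66 lower, a boundary of 4.41 gave 70 and 46, and leaving out chromosome 11 gave 47 and 45. The Hif1a difference ran from -0.73 to -0.57 when a tumour was left out (exact permutation p = 0.0179 to 0.0357), and was -0.76 (0.119) at probe set 2 and -0.01 (0.675) at probe set 4, which is at background. Of 1268 values for 71 named genes, 1267 kept direction and side of the threshold, which no named gene passed in the main fit. All of them but Epas1 have groups without overlap, so leaving out a tumour could not turn their direction. The count is therefore no measure of robustness. Hspb11 turned to -0.02 with the mean of its probe sets, the other of which is at background. With all tumours kept, the other named differences that moved by over 1.5 times were those of Cd96 (0.49) and Nolc1 (-0.40) with the Y-linked covariate and, with the mean of the probe sets, Cant1 (0.31), Col5a1 (-0.94), Ddx21 (-0.61), Eif3h (0.05), Fxyd2 (1.19), Hopx (-1.35), Jag2 (1.40), Pias2 (-0.50), Ptbp1 (-0.41), Sos1 (-0.16), Zfp286 (1.40) and Zfp991 (-0.16). With chromosomes centred, Dhx15 turned to 0.07.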
